A study of Rattus norvegicus with 29 samples.

Results

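The genes described here are a set of 40 named for hepatic stellate cells and the extracellular matrix: collagens, the enzymes that crosslink them, stellate cell markers, proteoglycans, matrix glycoproteins, proteases with their inhibitors, and components of TGF-beta signalling. A gene was taken where the array table held a transcript cluster, the array's unit for 1 gene, with that gene as its single platform symbol. This gave 32 of the 40, out of 14324 genes that have such a cluster, and each of the 32 had 1 cluster. Col4a2, Col6a1, Col6a2, Col6a3, Acta2, Tgfbr2, Thbs1 and Thbs2 had no such cluster and were not analysed here. The 32 comprise 7 collagens, 3 crosslinking enzymes, 7 stellate cell markers and 15 others.

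All animals were male Crl:CD Sprague-Dawley rats with a stated age of 6 to 7 weeks. How that age relates to the 2 days of killing was not established here. The rats were given a daily oral gavage of 2,2,5,7,8-pentamethyl-6-chromanol (PMCol) or of the 1% methylcellulose vehicle alone. PMCol is a tocopherol analogue with a methyl group in place of the long phytyl tail. The left liver lobe of each animal was measured on 1 array. Rats that had received 7 doses were killed on day 8 and formed a vehicle group (n = 6) and a 2000 mg/kg group (n = 6). Rats that had received 28 doses were killed on day 29 and formed a vehicle group (n = 6), a 200 mg/kg group (n = 6) and a 2000 mg/kg group (n = 5). Animals given 200 mg/kg and killed on day 8 were not analysed here. The labels name no genetic or surgical model of liver disease in these rats.

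Hepatic stellate cells lie between the hepatocytes and the sinusoidal endothelium and store vitamin A as retinyl esters. On liver injury they can become contractile, matrix-secreting cells under PDGF and TGF-beta, and they are known as the main source of fibrillar collagen in fibrosis. Secreted collagen is trimmed by proteinases, assembled into fibrils and crosslinked by lysyl oxidases, and metalloproteinases and their inhibitors set how fast it is removed.

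The values are deposited log2 signals in which every transcript cluster has a median of 0 over the 29 arrays, so a value says how far an animal lies from the middle animal and gives no level of expression. Levels of different genes, and whether the stellate cell markers were above background, could therefore not be compared, and the cell type name of the set could not be checked from levels. For 12 of the 32 genes the rounding of the stored numbers fits log2 signals of 8 or more in all animals, and they include the stellate cell markers Lrat, Reln, Pdgfrb, Hgf and Vim. Of the collagens, only Col1a2 and Col14a1 are among the 12, and Lox, Loxl1 and Loxl2 are not. Array medians ran from -0.023 to 0.0287, and the spread over all clusters was widest in vehicle day 29 replicate 1 (SD 0.2866). The number of arrays limits the precision. In whole liver, fewer cells of a type and less RNA per cell cannot be told apart. Differences between groups are on the log2 scale ± SE, fitted with limma to the 29 animals together. Their p-values were adjusted by Benjamini-Hochberg across 27342 clusters. A gene is said to have risen or fallen where that value was under 0.05. The median difference over all clusters was 0 in each comparison with vehicle.

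The effect of 28 daily doses at 2000 mg/kg was examined first. Of the 32, 26 fell and 0 rose, while 9.55% of all clusters fell and 12.1% rose (21.6% called either way). The median difference over the 32 was -0.55, and all 32 differences were below 0. In 16 genes every treated animal lay below every vehicle animal, against 4.99% of all clusters. Of the 32, 18 fell by 0.5 or more on the log2 scale, which 2.31% of all clusters did. All 7 collagens, all 3 crosslinking enzymes and 6 of the 7 stellate cell markers were among those that fell.

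The upstream sequences of 5 of these genes are shown because they had the largest falls at day 29 among genes with a promoter window in the RefSeq table (20 of the 32 genes had one, of 27457 windows). Each runs 5′ to 3′ over the 250 bases before the start that the promoter table uses, on assembly GRCr8. The RefSeq gene table places the start elsewhere for some genes: the last 128 bases shown for Reln and the last 88 shown for Pdgfra lie inside the gene there, and in 7 of the 20 windows part or all of the 250 bases do. Lrat lies at chr2:170571213-170571462 on the minus strand, Pdgfra at chr14:33408517-33408766 on the minus strand and Sparc at chr10:40038817-40039066 on the minus strand. Reln lies at chr4:13628318-13628567 and Col1a2 at chr4:33518307-33518556, both on the plus strand. Capitals mark matches to TATAAA, to CCAAT or to GGGCGG, read on either strand.
Lrat: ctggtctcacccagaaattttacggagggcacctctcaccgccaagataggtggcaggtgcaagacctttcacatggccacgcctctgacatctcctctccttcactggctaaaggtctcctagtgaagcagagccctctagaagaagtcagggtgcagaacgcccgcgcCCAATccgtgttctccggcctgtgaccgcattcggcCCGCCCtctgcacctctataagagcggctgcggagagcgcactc
Pdgfra: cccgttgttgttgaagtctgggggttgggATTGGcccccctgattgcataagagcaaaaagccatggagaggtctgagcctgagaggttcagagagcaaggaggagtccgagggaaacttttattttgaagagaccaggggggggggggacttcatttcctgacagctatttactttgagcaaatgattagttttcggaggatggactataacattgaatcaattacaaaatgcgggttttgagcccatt
Sparc: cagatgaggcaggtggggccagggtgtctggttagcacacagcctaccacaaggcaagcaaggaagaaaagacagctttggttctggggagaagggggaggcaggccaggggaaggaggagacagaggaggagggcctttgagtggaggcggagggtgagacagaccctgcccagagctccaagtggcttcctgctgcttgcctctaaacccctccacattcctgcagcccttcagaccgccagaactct
Reln: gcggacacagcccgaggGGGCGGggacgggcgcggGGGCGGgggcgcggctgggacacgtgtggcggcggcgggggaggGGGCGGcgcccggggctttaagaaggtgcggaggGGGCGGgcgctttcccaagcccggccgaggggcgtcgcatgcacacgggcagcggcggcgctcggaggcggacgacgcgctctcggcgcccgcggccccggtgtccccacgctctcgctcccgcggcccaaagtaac
Col1a2: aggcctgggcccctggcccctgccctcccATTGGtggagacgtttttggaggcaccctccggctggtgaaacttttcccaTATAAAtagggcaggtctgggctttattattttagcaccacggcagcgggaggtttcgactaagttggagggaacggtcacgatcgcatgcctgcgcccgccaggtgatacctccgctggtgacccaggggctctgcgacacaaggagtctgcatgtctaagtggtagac

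The windows shown for these 5 genes, which fell together, did not hold the same motifs. Reln held 4 matches to GGGCGG, 80.0% G and C and 41 CpG dinucleotides, Sparc held none of the motifs and 2 CpG dinucleotides, and the median window had 52.0% G and C. Col1a2 held TATAAA beginning 170 bases before the start and an inverted CCAAT at 221 bases. In Lrat the CCAAT began 80 bases and an inverted GGGCGG 44 bases before the start. Pdgfra held 1 inverted CCAAT, and its distance from the start differs between the RefSeq tables. Over the 20 genes with a window, TATAAA was present in 4 (13.1% of all windows hold it), CCAAT in 7 (34.3% of all windows) and GGGCGG in 11 (32.4% of all windows). The AP-1 motif TGACTCA (3.98% of all windows), the SMAD palindrome GTCTAGAC (0.186%) and the CArG box of serum response factor (1.5%) were in 0 of the 20. Both strands were searched and no printed matches overlap. A match is a description of letters and not of a site.

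Among the fibrillar collagens, Col3a1, the chain of collagen III, fell the most. Its values were -0.43, -0.41, -0.43, -0.38 and -0.58 at 2000 mg/kg and ran from -0.02 through a median of 0.41 to 0.72 in vehicle animals. The groups did not overlap, and the difference of -0.86 ± 0.11 (adjusted p = 1.48e-06) is 1.82-fold lower. Col1a2, the second chain of collagen I, measured -0.28, -0.23, -0.50, -0.25 and -0.64 against -0.07 to 0.56 (median 0.29), again without overlap, a difference of -0.66 ± 0.11 (adjusted p = 2.96e-05). Col1a1, which encodes the partner chain, measured -0.31, -0.29, -0.13, -0.28 and -0.43 against -0.19 to 0.54 (median 0.14). It fell by 0.45 ± 0.09 (adjusted p = 0.000717), and here the lowest vehicle animal lay inside the treated range. The 2 collagen V chains, which regulate fibril diameter, moved less: Col5a1 fell by 0.31 ± 0.05 with groups apart and Col5a2 by 0.24 ± 0.06 with overlap.

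Outside the fibrillar collagens, Col14a1, a collagen that binds to fibril surfaces, fell by 0.78 ± 0.16 (adjusted p = 0.000532). Its treated animals lay between -0.71 and -0.24 and its vehicle animals between -0.27 and 0.50, so the groups touched at 1 end. Col4a1, a chain of the basement membrane network, fell by 0.30 ± 0.07 (adjusted p = 0.000889), also with overlap. Pcolce, the enhancer of procollagen C-proteinase, fell by 0.48 ± 0.10 (adjusted p = 0.000415), from a vehicle median of 0.27 to a treated median of -0.23.

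Lox, the lysyl oxidase that begins collagen and elastin crosslinks, had the largest difference of the 32. Treated animals measured 0.00, -0.31, -0.68, -0.63 and -0.76, and vehicle animals 0.04 to 2.21 with a median of 1.88. No treated animal reached the lowest vehicle animal, which was vehicle replicate 1 at 0.04, although the other 5 vehicle animals lay at 0.92 or above. The difference of -1.99 ± 0.30 (95% interval -2.62 to -1.37, adjusted p = 1.56e-05) is 3.98-fold lower and ranked 15 from the lowest of 14324 genes. Without vehicle day 29 replicates 1 and 2 it was -2.25.

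The 2 related enzymes fell by less. Loxl1, which acts mainly on elastic fibres, measured -0.24, -0.27, 0.02, -0.14 and -0.29 against 0.13 to 0.49 (median 0.17) and fell by 0.43 ± 0.07 (adjusted p = 4.25e-05). Loxl2, which acts on basement membrane collagen among other substrates, measured -0.42, -0.34, -0.45, -0.54 and -0.53 against -0.25 to 0.41 (median 0.04). It fell by 0.53 ± 0.11 (adjusted p = 0.000726), and for both enzymes the groups were fully apart.

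Among stellate cell markers the largest fall was in Lrat, the acyltransferase that makes the retinyl esters these cells store. Treated animals measured -0.80, -0.90, -0.98, -0.53 and -0.93, and vehicle animals 0.08 to 0.84 with a median of 0.61. The groups stood well apart, with a difference of -1.40 ± 0.14 (adjusted p = 2.32e-08), 2.63-fold lower. Pdgfrb, the PDGF receptor through which these cells are driven to divide and migrate, measured -0.49, -0.52, -0.65, -0.53 and -0.66 against 0.27 to 0.63 (median 0.40). It fell by 0.97 ± 0.10 (adjusted p = 1.75e-08), with a gap between groups that exceeded the range within either.

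Pdgfra, the other PDGF receptor, measured -0.38, -0.76, -0.69, -0.62 and -0.44 against 0.08 to 0.54 (median 0.31). This difference of -0.88 ± 0.13 (adjusted p = 1.06e-05) also separated the groups. Reln, a secreted glycoprotein made by stellate cells in liver, fell by 0.70 ± 0.14 (adjusted p = 0.000391) with groups apart. Hgf, the hepatocyte growth factor that stellate cells supply, fell by 0.51 ± 0.13 and Des, the intermediate filament desmin, by 0.47 ± 0.12, both with overlapping groups. Vim, an intermediate filament of most mesenchymal cells, was the marker that did not pass, at -0.17 ± 0.19 (adjusted p = 0.583). Its treated animals ran from -0.61 to 0.09 and its vehicle animals from -0.37 to 0.50.

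**Figure D1:**
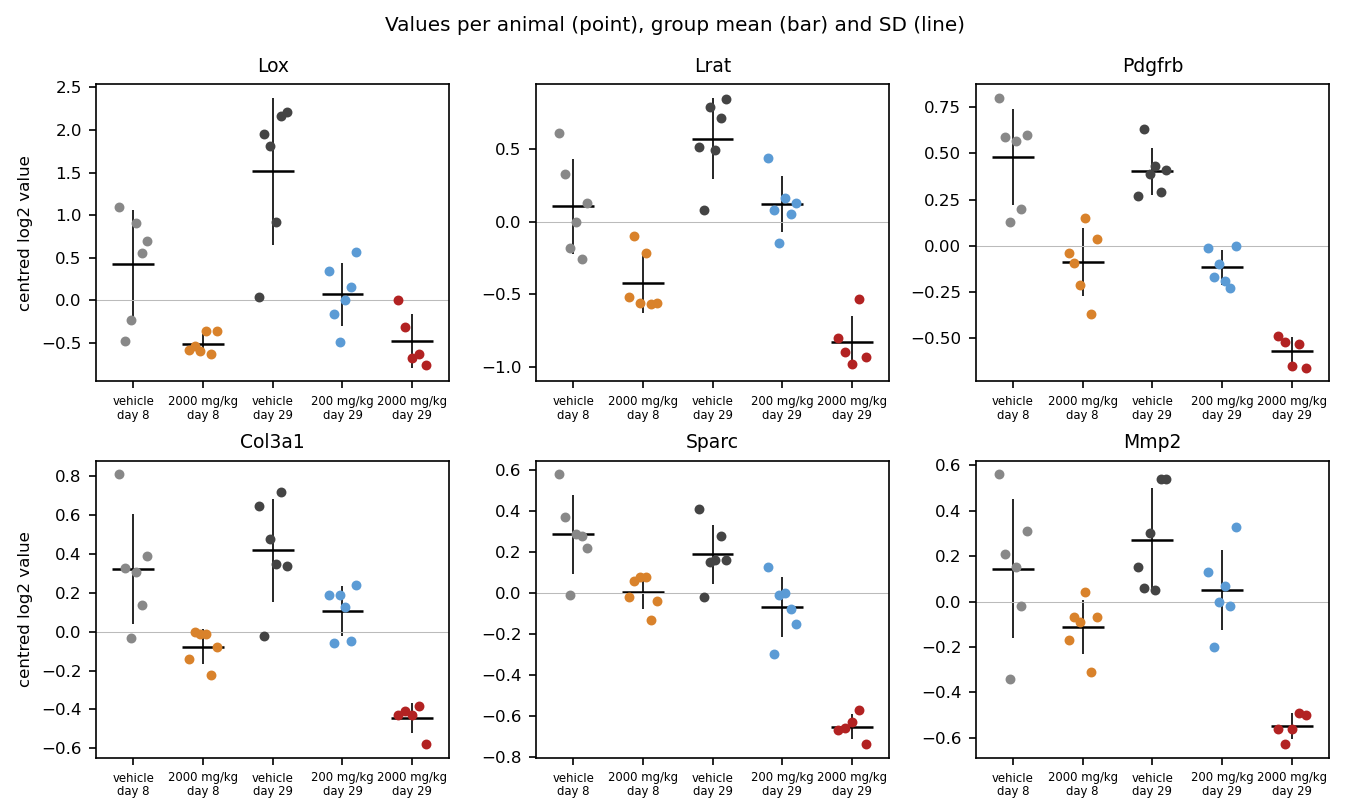
Centred log2 value of each animal (points) in the 5 groups for Lox, Lrat, Pdgfrb, Col3a1, Sparc and Mmp2, with the group mean (horizontal bar) and SD (vertical line). In each panel the 5 animals at 2000 mg/kg on day 29 lie below all vehicle animals of that day, and for Lox 1 vehicle animal, at 0.04, lies close to them.

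The matrix glycoproteins and proteoglycans divided. Sparc, a collagen-binding glycoprotein, measured -0.67, -0.66, -0.63, -0.57 and -0.74 against -0.02 to 0.41 (median 0.16), a difference of -0.85 ± 0.08 (adjusted p = 7.46e-09) without overlap. Fn1, fibronectin, which hepatocytes also secrete into plasma, measured -0.43, -0.53, -0.65, -0.61 and -0.80 against 0.05 to 0.41 (median 0.16) and fell by 0.79 ± 0.07 (adjusted p = 4.58e-09). Fbln5, an organiser of elastic fibres, fell by 0.60 ± 0.14, whereas Eln, elastin itself, was at -0.19 ± 0.08 (adjusted p = 0.0922) and Postn, periostin, at -0.10 ± 0.05 (adjusted p = 0.107).

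Of the small leucine-rich proteoglycans, Bgn, biglycan, fell by 0.57 ± 0.11 (adjusted p = 0.00039) with groups apart. Lum, lumican, fell by 0.57 ± 0.19 (adjusted p = 0.0315), but it missed the threshold with any of these left out: replicates 1, 2, 3 and 5 at 2000 mg/kg and replicates 5 and 6 of the vehicle group (differences -0.58 to -0.42, adjusted p 0.0542 to 0.1), as it did when only those groups were fitted (adjusted p = 0.0939). Dcn, decorin, was at -0.18 ± 0.22 (adjusted p = 0.636). Tagln, transgelin, an actin-binding protein of contractile cells, measured -0.50, -0.55, -0.33, -0.11 and -0.24 against -0.07 to 0.59 (median 0.33) and fell by 0.65 ± 0.11 (adjusted p = 3.7e-05), the groups lying just apart.

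In matrix turnover, the protease and 1 of 2 inhibitors fell. Mmp2, gelatinase A, measured -0.56, -0.63, -0.56, -0.49 and -0.50 against 0.05 to 0.54 (median 0.23), a difference of -0.82 ± 0.11 (adjusted p = 4.58e-06) with groups apart. Timp2, an inhibitor that also takes part in activating Mmp2, fell by 0.57 ± 0.10 (adjusted p = 0.000151), also with groups apart. Timp1, the inhibitor known to rise in injured liver, measured 0.24, 0.05, -0.62, -0.02 and 0.02 against -0.14 to 0.39 (median -0.03). Its groups overlapped throughout, at -0.13 ± 0.14 (adjusted p = 0.597).

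Of the 2 TGF-beta signalling genes measured, 1 fell. Ccn2, a matrix protein induced by TGF-beta, measured -0.24, 0.05, -0.25, 0.00 and -0.39 against -0.35 to 0.42 (median 0.28) and fell by 0.33 ± 0.11 (adjusted p = 0.0348). It missed the threshold with any of these animals left out: replicates 1, 3 and 5 at 2000 mg/kg and vehicle replicates 1, 4, 5 and 6 (-0.31 to -0.27, adjusted p 0.0695 to 0.117). Quantile normalization (adjusted p = 0.0656) and a fit on those groups alone (adjusted p = 0.117) also ended the call. Tgfb1, the TGF-beta1 ligand, was at -0.15 ± 0.06 (adjusted p = 0.0994), with treated values of 0.00, -0.18, -0.15, -0.15 and 0.02 inside and below a vehicle range of -0.05 to 0.21.

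**Figure D2:**
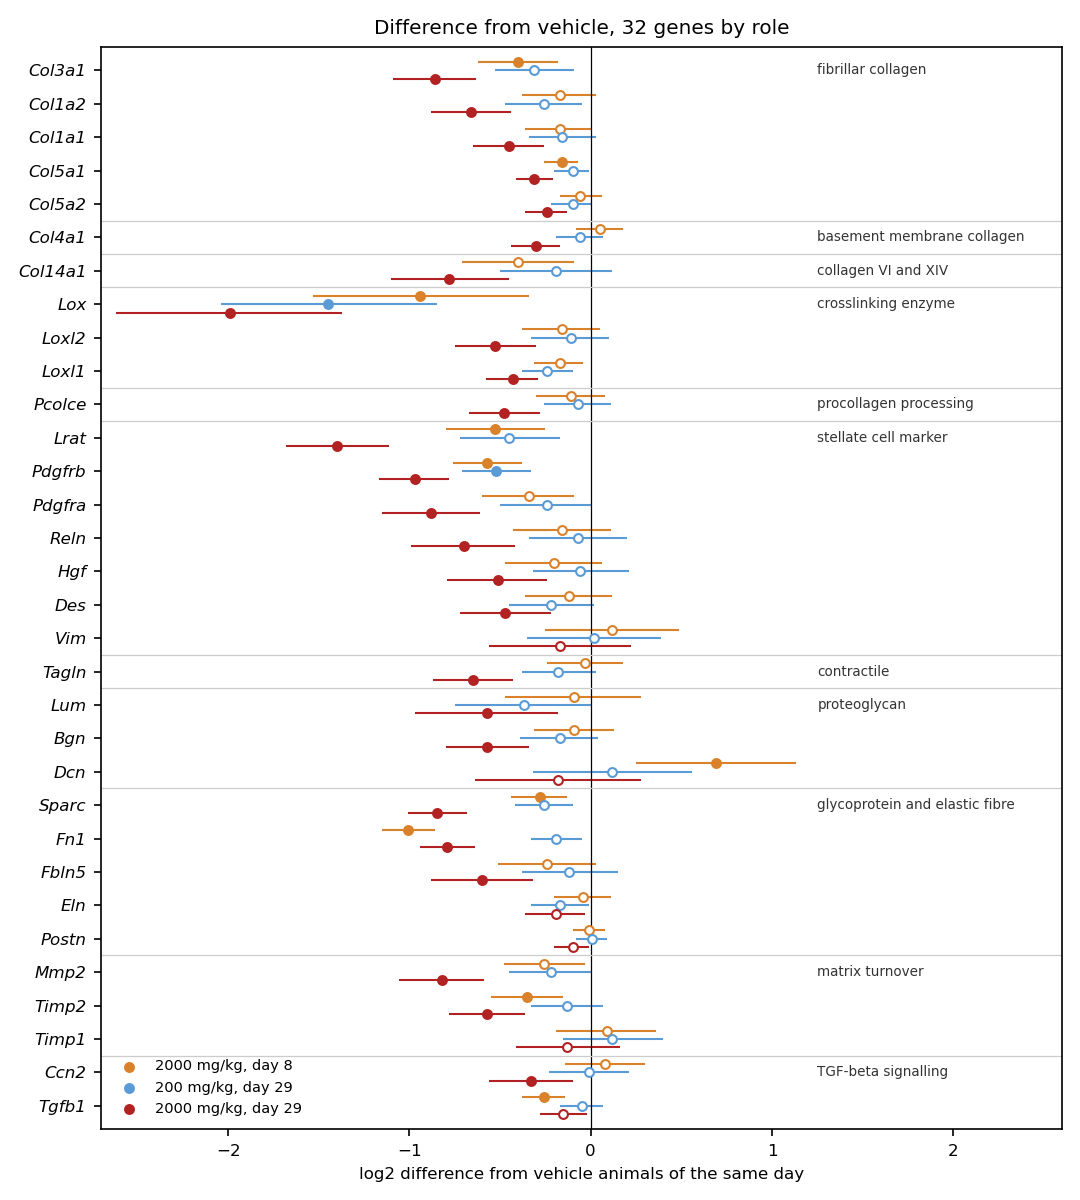
Log2 difference from vehicle animals of the same day for the 32 genes, grouped by role, with 95% intervals as horizontal lines, for 2000 mg/kg at day 8, 200 mg/kg at day 29 and 2000 mg/kg at day 29. Filled points passed an adjusted p of 0.05. The 2000 mg/kg points of day 29 lie left of 0 for all 32 genes and are filled for 26.

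The lower dose was given over the same 28 days. At 200 mg/kg, 2 of the 32 genes fell and 0 rose, while 1.42% of all clusters fell and 1.37% rose (2.78% called either way), and the median difference of the 32 was -0.16. Both dose groups were compared with the same 6 vehicle animals, so their differences are not independent. Lox fell by 1.45 ± 0.29 (adjusted p = 0.00461, 2.72-fold lower), with 200 mg/kg animals at -0.49 to 0.57 (median 0.08), a range that the lowest vehicle animal entered. Fitted on those groups alone, the same difference had an adjusted p of 0.0569 and was not called. Pdgfrb fell by 0.52 ± 0.09 (adjusted p = 0.00136), with animals at -0.23 to 0.00 (median -0.14), all below the vehicle range. It was the 1 gene of the 32 whose groups were apart, against 0.684% of all clusters.

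Several others missed the threshold at 200 mg/kg: Loxl1 at -0.24 ± 0.07 (adjusted p = 0.0522), Sparc at -0.26 ± 0.08 (adjusted p = 0.0649) and Lrat at -0.45 ± 0.13 (adjusted p = 0.0698). The collagens were at -0.31 (Col3a1) to -0.06 (Col4a1), with 0 of 7 called. Leaving out vehicle replicate 2 brought the count to 6, adding Col3a1, Loxl1, Lrat and Sparc (adjusted p 0.0175 to 0.0403), and leaving out 200 mg/kg replicate 1 brought it to 4, adding Lrat and Sparc.

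Set directly against 200 mg/kg, 2000 mg/kg gave lower values in all 32 genes. Of these, 20 fell, while 3.84% of all clusters fell and 6.05% rose (9.89% called either way), and the median difference was -0.40. In 15 genes the groups were apart, against 2.5% of all clusters. The largest falls were in Lrat (-0.95 ± 0.14, adjusted p = 4.04e-05), Pdgfra (-0.64 ± 0.13, adjusted p = 0.00156) and Reln (-0.63 ± 0.14, adjusted p = 0.00311). Fn1 (-0.60 ± 0.07), Mmp2 (-0.60 ± 0.11), Sparc (-0.59 ± 0.08) and Col14a1 (-0.59 ± 0.16) fell by nearly as much as the latter pair, and the markers Des (-0.26) and Vim (-0.19) did not pass. Lrat measured -0.15 to 0.44 (median 0.10) at 200 mg/kg, and all 5 animals at 2000 mg/kg lay below that range. Pdgfrb fell further, by 0.45 ± 0.10 (adjusted p = 0.00226).

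Lox was at -0.55 ± 0.30 between doses (95% interval -1.17 to 0.08, adjusted p = 0.3) with overlapping groups, and that interval holds the values of Col3a1, Pdgfra and Reln. Loxl1 was at -0.19 ± 0.07 (adjusted p = 0.0884), and Loxl2 was the enzyme of the 3 that fell between doses, by 0.41 ± 0.11 (adjusted p = 0.0146). Of the collagens, 6 of 7 fell between doses, with Col3a1 at -0.55 ± 0.11 (adjusted p = 0.00143), Col1a2 at -0.40 ± 0.11 (adjusted p = 0.0137) and Col1a1 at -0.29 ± 0.09 (adjusted p = 0.0453). Over the 3 groups of day 29, the means of 28 genes were in the order vehicle, 200 mg/kg, 2000 mg/kg from highest to lowest.

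Of the 20 calls between doses, 6 were lost on leaving out 1 animal. Without 2000 mg/kg replicate 5, Bgn, Col1a1, Col1a2, Col4a1 and Fbln5 were lost (adjusted p 0.0594 to 0.137). Without replicate 1, 2 or 4 of that group Col1a1 was lost, without 2, 3 or 4 Hgf, without 3 Bgn and without 4 Fbln5 (adjusted p 0.0533 to 0.0957). Leaving out 200 mg/kg animals ended the call of Col1a1 (replicate 1, 3, 5 or 6), Hgf (4 or 5), Fbln5 (4 or 6) and Bgn (4), with adjusted p from 0.05 to 0.119. In these fits the differences stayed below 0, from -0.47 to -0.22. The call of Col1a1 was also lost under quantile normalization (adjusted p = 0.0541) and with array weights (adjusted p = 0.0827).

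Animals killed on day 8 had received 7 doses of 2000 mg/kg. Here 9 of the 32 genes fell and 1 rose, while 9.32% of all clusters fell and 9.32% rose (18.6% called either way), and the median over the 32 was -0.17. In 4 genes the treated animals lay below all vehicle animals, against 5.19% of all clusters. Fn1, with treated animals at -1.05 to -0.60 (median -0.87) and vehicle animals at 0.00 to 0.28 (median 0.20), had the largest difference, at -1.01 ± 0.07 (adjusted p = 1.9e-11, 2.01-fold lower). Those groups were far apart.

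Pdgfrb was already lower at day 8, with treated animals at -0.37 to 0.15 (median -0.07) and vehicle animals at 0.13 to 0.80 (median 0.58), a difference of -0.57 ± 0.09 (adjusted p = 3.84e-05) with a slight overlap. Lrat fell by 0.53 ± 0.13 (adjusted p = 0.00522), from a vehicle range of -0.26 to 0.61 to a treated range of -0.57 to -0.10. Lox, at -0.63 to -0.36 (median -0.56) against -0.48 to 1.10 (median 0.63), fell by 0.94 ± 0.29 (adjusted p = 0.0222). It missed the threshold once vehicle replicate 1 (-0.80, adjusted p = 0.0632) or vehicle replicate 4 (-0.84, adjusted p = 0.0588) was left out.

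Among the collagens, 2 of 7 fell at day 8: Col3a1 by 0.40 ± 0.11 (adjusted p = 0.00715) and Col5a1 by 0.16 ± 0.05 (adjusted p = 0.0113). The collagen I chains were at -0.17 ± 0.09 for Col1a1 (adjusted p = 0.202) and -0.17 ± 0.10 for Col1a2 (adjusted p = 0.276). Timp2 fell by 0.35 ± 0.10, Sparc by 0.28 ± 0.08 and Tgfb1 by 0.26 ± 0.06 (adjusted p = 0.00235). For Tgfb1 the treated animals lay at -0.14 to -0.01 and the vehicle animals at 0.01 to 0.34, without overlap, which was not so at day 29. Loxl1 was at -0.17 ± 0.07 (adjusted p = 0.0742), Loxl2 at -0.16 ± 0.11, Timp1 at 0.09 ± 0.13 and Ccn2 at 0.08 ± 0.11.

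Dcn was the gene that rose at day 8, with treated animals at 0.09 to 1.51 (median 0.65) and vehicle animals at -0.25 to 0.42 (median -0.01). The difference was 0.69 ± 0.21 (adjusted p = 0.0218, 1.61-fold higher), with overlapping groups. It was lost without 2000 mg/kg replicate 4 (0.53, adjusted p = 0.0778) or vehicle replicate 5 (0.64, adjusted p = 0.0517).

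**Figure D3:**
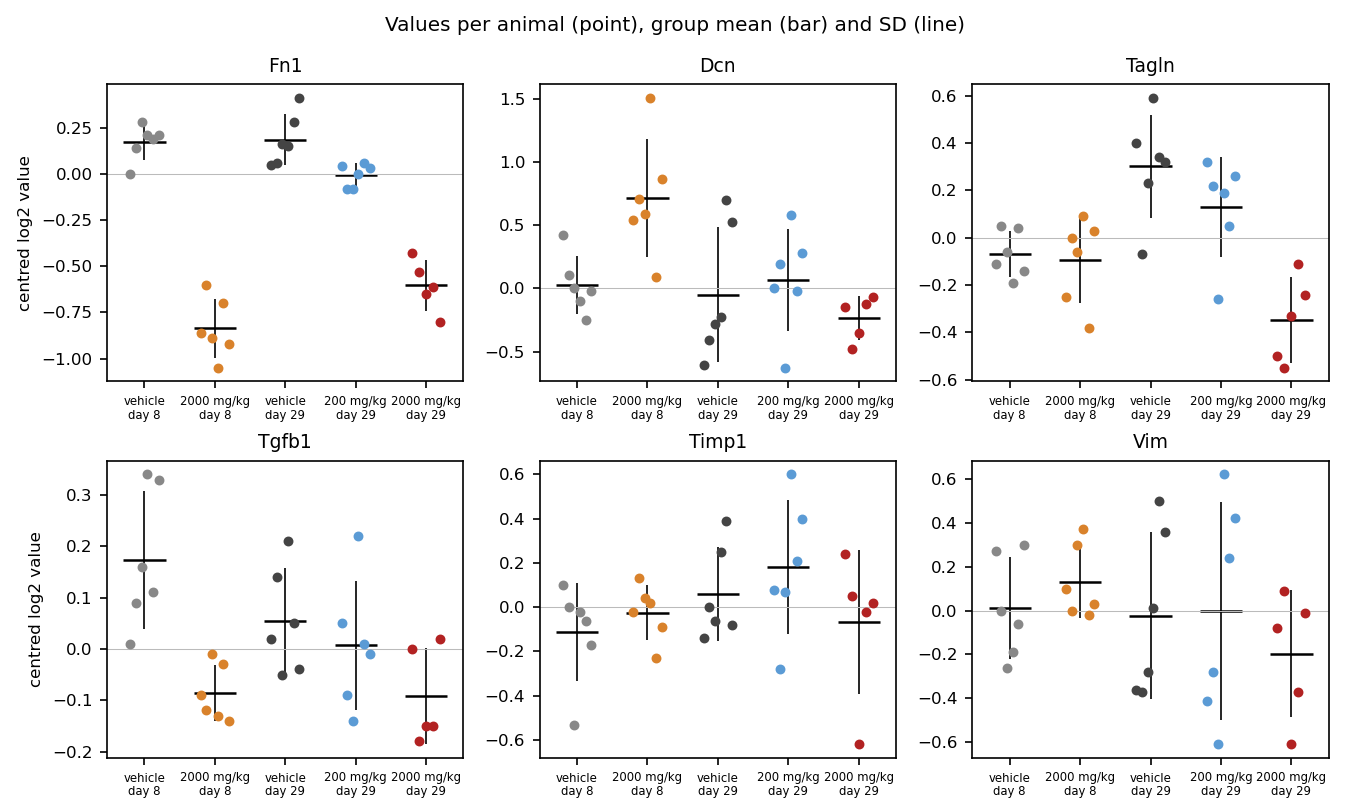
Centred log2 value of each animal (points) in the 5 groups for Fn1, Dcn, Tagln, Tgfb1, Timp1 and Vim, with the group mean (horizontal bar) and SD (vertical line). Fn1 is low in both 2000 mg/kg groups, Dcn is highest at 2000 mg/kg on day 8, where it spans 0.09 to 1.51, and the groups of Timp1 and Vim overlap.

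The change in effect between days was tested as the day 29 difference minus the day 8 difference. Of the 32 genes, 3 were more strongly lowered at day 29, while 0.304% of all clusters had a lower effect and 0.472% a higher effect by this test (0.775% called either way), and the median over the 32 was -0.37 against 0.01 over all clusters. Sparc had a change of -0.56 ± 0.11 (adjusted p = 0.0166), from -0.28 at day 8 to -0.85 at day 29. Lrat changed by -0.87 ± 0.19 (adjusted p = 0.0324) and Tagln by -0.62 ± 0.15 (adjusted p = 0.0405), the latter from -0.03 to -0.65. For Lrat and Tagln part of the change lay in the vehicle animals. From day 8 to day 29 these differed by 0.46 ± 0.13 for Lrat (not called), 0.37 ± 0.10 for Tagln and -0.10 ± 0.08 for Sparc. Means of treated animals went from -0.42 to -0.83 for Lrat, from -0.09 to -0.35 for Tagln and from 0.00 to -0.66 for Sparc.

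All 3 calls were lost under quantile normalization (Sparc at -0.48, adjusted p = 0.0818, Lrat at -0.80, 0.0686, and Tagln at -0.63, 0.0621). Leaving out any 1 animal did not end the call of Sparc, but it did for the others. Lrat lost it without 2000 mg/kg day 29 replicate 1, 3 or 5, 2000 mg/kg day 8 replicate 1 or 4, vehicle day 29 replicate 3, 5 or 6, or vehicle day 8 replicate 4 (-0.89 to -0.81, adjusted p 0.0506 to 0.068). Tagln lost it without any 1 of 17 animals (-0.65 to -0.56, adjusted p 0.0506 to 0.0764). It kept it without 2000 mg/kg day 29 replicate 4, 2000 mg/kg day 8 replicate 2 or 5, vehicle day 29 replicate 2, or vehicle day 8 replicate 3 or 5. The count moved to 9 without vehicle day 29 replicate 2 and to 5 without vehicle day 8 replicate 1. It was 1 without 2000 mg/kg day 29 replicate 1, 3 or 5, 2000 mg/kg day 8 replicate 1 or 4, vehicle day 29 replicate 3, 5 or 6, or vehicle day 8 replicate 4.

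Most of the 26 genes that fell at day 29 had not passed at day 8: 18 were called on day 29 but not on day 8, and 8 on both days. For those 18, apart from Tagln, the change between days did not pass the test. Lox was at -1.06 ± 0.42 for this change (adjusted p = 0.234), Col1a2 at -0.49 ± 0.15 (adjusted p = 0.105) and Col4a1 at -0.36 ± 0.09 (adjusted p = 0.056). The mean of Lox in treated animals was -0.51 on day 8 and -0.48 on day 29, while in vehicle animals it was 0.43 and 1.52. Fn1, at 0.22 ± 0.10 (adjusted p = 0.309), and Tgfb1, at 0.11 ± 0.09, were the genes with a change above 0. Dcn, which rose at day 8, was at -0.87 ± 0.31 (adjusted p = 0.18).

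**Figure D4:**
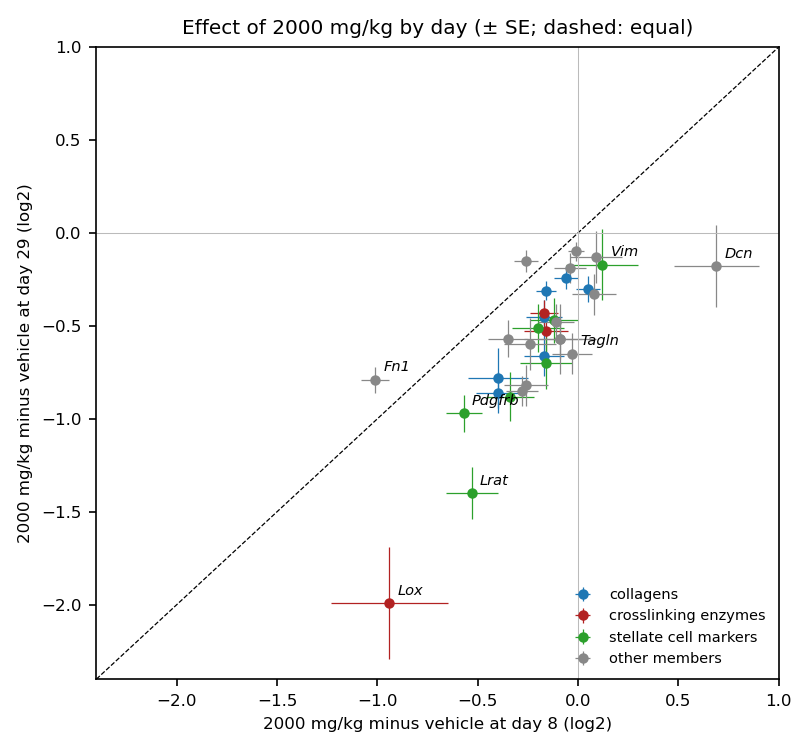
Log2 difference of 2000 mg/kg from vehicle at day 8 (horizontal axis) and at day 29 (vertical axis) for the 32 genes, with SE bars and colours for collagens, crosslinking enzymes, stellate cell markers and other members. Points below the dashed line of equality, 30 of the 32, have a lower difference at day 29 than at day 8, and Fn1 and Tgfb1 lie above it.

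The vehicle groups themselves differed in 2 genes. Between day 8 and day 29, Lox rose by 1.09 ± 0.29 (adjusted p = 0.0396) and Tagln by 0.37 ± 0.10 (adjusted p = 0.0453) in vehicle animals, and 0 genes fell. Over all clusters 0.962% rose and 1.77% fell (2.73% called either way), and the median of the 32 was 0.09. Vehicle values of Lox were -0.48 to 1.10 at day 8 and 0.04 to 2.21 at day 29, overlapping groups with a wide spread. The day 29 differences of both genes are measured from these vehicle animals.

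Both calls were lost under quantile normalization and with only the vehicle groups fitted, and neither held on leaving out single animals. Lox lost it without vehicle day 29 replicate 3, 5 or 6 or vehicle day 8 replicate 2, 3, 4 or 6 (0.91 to 1.19, adjusted p 0.0502 to 0.107). Tagln lost it without vehicle day 29 replicate 1, 3, 4, 5 or 6 or vehicle day 8 replicate 1, 2, 3, 4 or 6 (0.31 to 0.39, adjusted p 0.0597 to 0.106). Without vehicle day 29 replicate 2 the count was 5, with Lrat, Des and Ccn2 added. It was 1 without vehicle day 29 replicate 1 or 4, and 0 without vehicle day 29 replicate 3, 5 or 6 or vehicle day 8 replicate 2, 3, 4 or 6.

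The 3 classes were set side by side, with no test between them. At 2000 mg/kg on day 29 the median difference was -0.45 for the 7 collagens, -0.53 for the 3 crosslinking enzymes and -0.70 for the 7 stellate cell markers. At 200 mg/kg the medians were -0.16, -0.24 and -0.22 in that order, and at day 8 they were -0.17, -0.17 and -0.20. Within each class the genes were uneven: collagens ran from -0.86 to -0.24 at 2000 mg/kg on day 29, crosslinking enzymes from -1.99 to -0.43 and stellate cell markers from -1.40 to -0.17. The classes also differ in stored signal. Most stellate cell markers fit 8 or more, but of the collagens only Col1a2 and Col14a1 do, and no crosslinking enzyme does. The part of signal in the order of the classes was not tested.

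Averaged per animal, the collagens measured -0.46 to -0.25 (median -0.29) at 2000 mg/kg on day 29, -0.11 to 0.12 (median 0.06) at 200 mg/kg and -0.05 to 0.37 (median 0.22) in vehicle animals. The stellate cell markers measured -0.61 to -0.30 (median -0.47), -0.14 to 0.21 (median 0.08) and 0.03 to 0.47 (median 0.28) in the same groups. For both classes the 2000 mg/kg animals lay below every animal of the other groups of that day, and the 200 mg/kg animals overlapped the vehicle animals. The crosslinking enzyme mean, at -0.53 to -0.22, -0.22 to 0.19 and 0.08 to 0.99, follows Lox, which has the widest spread of its 3 genes. Over all 5 groups, 29 of the 32 genes had their lowest mean at 2000 mg/kg on day 29, the exceptions being Timp1, Fn1 and Lox, and 22 had their highest in vehicle animals of day 29.

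**Figure D5:**
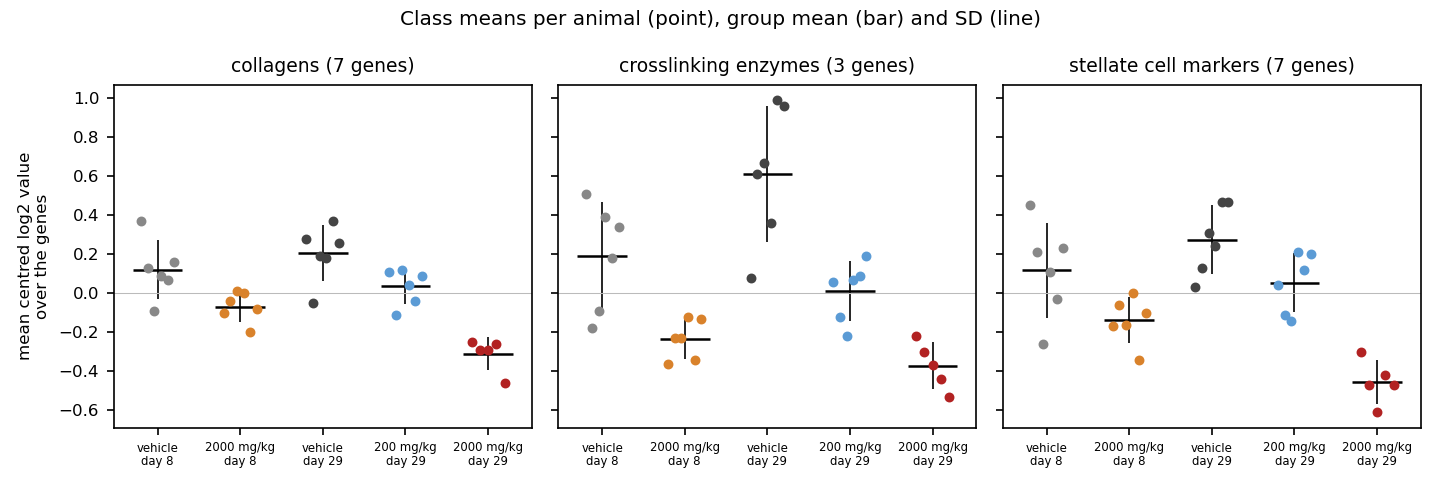
Mean centred log2 value over the 7 collagens, 3 crosslinking enzymes and 7 stellate cell markers in each animal (points) of the 5 groups, with the group mean (horizontal bar) and SD (vertical line). The 2000 mg/kg animals of day 29 lie at -0.46 to -0.25, -0.53 to -0.22 and -0.61 to -0.30, and vehicle animals of day 29 spread the most for crosslinking enzymes.

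Animals within a group also differed together. In vehicle day 8, replicate 1 was the highest animal in 19 of the 32 genes and replicate 3 the lowest in 14. At 2000 mg/kg replicate 5 was the lowest in 21 genes on day 8, and the animal numbered 5 on day 29, a different rat, in 17. In vehicle day 29, replicate 2 was the lowest in 17 and replicate 1 in 12. With both left out, 26 of the 32 genes fell at 2000 mg/kg, and these were the same 26.

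Further genes of collagen assembly, other collagens, basement membrane, TGF-beta and PDGF signalling and matrix proteolysis (56 measured genes outside the 32) did not move as a block. At 2000 mg/kg on day 29, 6 rose and 10 fell, with a median of -0.06, and on day 8, 4 rose and 10 fell, with a median of -0.03. Over all clusters 12.1% rose and 9.55% fell on day 29, and 9.32% rose and 9.32% fell on day 8. At 200 mg/kg these shares were 1.37% and 1.42%. At 200 mg/kg 0 rose and 2 fell, Loxl4 and Bambi, a decoy receptor of the TGF-beta family. Bambi, at -0.24 ± 0.06 (adjusted p = 0.0322) at 200 mg/kg, rose by 0.20 ± 0.07 (adjusted p = 0.03) at 2000 mg/kg on day 29. Of the 7 other collagens measured, 0 passed in any comparison with vehicle.

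In collagen maturation, 2 of 17 genes rose and 2 fell on day 8, and 2 rose and 3 fell on day 29, at 2000 mg/kg. Over all clusters 9.32% rose and 9.32% fell on day 8, and 12.1% rose and 9.55% fell on day 29. These counts are thus not read as a result about the list. Loxl4, another lysyl oxidase-like enzyme, fell by 0.85 ± 0.11 (adjusted p = 2.64e-06) on day 8 and by 0.55 ± 0.12 (adjusted p = 0.000989) on day 29 at 2000 mg/kg, and by 0.50 ± 0.11 (adjusted p = 0.012) at 200 mg/kg. The others that fell were Bmp1, a procollagen C-proteinase, on day 8 (-0.46 ± 0.07), and on day 29 Adamts2, a procollagen N-proteinase (-0.45 ± 0.12), and Serpinh1, a collagen chaperone (-0.33 ± 0.09). Crtap, a component of the prolyl 3-hydroxylase complex, rose by 0.43 ± 0.10 on day 8 and 0.42 ± 0.11 on day 29, and P4hb, the disulfide isomerase subunit of prolyl 4-hydroxylase, by 0.28 ± 0.05 and 0.36 ± 0.05. In TGF-beta signalling Tgfb3, a TGF-beta ligand, fell by 0.67 ± 0.08 (adjusted p = 5.27e-07) on day 29, and Smad7, the inhibitory SMAD, rose by 0.78 ± 0.16 (adjusted p = 0.000725). Among proteases, Adamts1 fell by 0.95 ± 0.15 (adjusted p = 1.95e-05) on day 29 and Mmp14, the membrane protease that activates Mmp2, by 0.40 ± 0.05 (adjusted p = 1.61e-06) on day 8. The inhibitor Timp3 rose at 2000 mg/kg, by 0.40 ± 0.12 (adjusted p = 0.0219) on day 8 and 0.39 ± 0.13 (adjusted p = 0.0295) on day 29. Pdgfa, a PDGF ligand, rose by 0.44 ± 0.07 on day 8 and 0.51 ± 0.07 on day 29 at 2000 mg/kg. Pdgfc, another PDGF ligand, fell by 0.35 ± 0.10 (adjusted p = 0.0168) on day 8 and was not called on day 29 (-0.04 ± 0.11).

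A separate list of stellate cell markers outside the 32 went the same way at day 29. This list too was chosen with earlier results of these data known, so it is not an independent check. At 2000 mg/kg 9 of its 14 measured genes fell and 0 rose, with a median of -0.33, while 9.55% of all clusters fell. Bmp10, a ligand made by stellate cells, fell by 0.89 ± 0.14 (adjusted p = 1.58e-05) and Colec10, a collectin, by 0.84 ± 0.17 (adjusted p = 0.000368). The mean of the list lay at -0.23 to -0.13 in the 2000 mg/kg animals, 0.00 to 0.09 in the 200 mg/kg animals and 0.14 to 0.28 in vehicle animals of day 29, with no overlap between these groups. At day 8, 4 of the 14 fell, against 9.32% of all clusters. At 200 mg/kg 0 of 14 passed, against 2.78% of all clusters.

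Markers of other mesenchymal cells moved in part with the set at day 29. Over all clusters 9.55% fell at 2000 mg/kg on that day. At 2000 mg/kg 4 of 8 vascular smooth muscle genes fell, with Myh11 and Mylk both at -0.50, and the list mean was -0.22 to -0.05 against 0.03 to 0.33 in vehicle animals. Of the portal fibroblast genes 3 of 7 fell, with Mfap4 at -0.69 ± 0.18, and the list mean was -0.12 to -0.01 against -0.03 to 0.14. Dpt (0.32) and Thy1 (0.10) of that list lay above 0 and were not called. Of the 4 mesothelial genes Wt1 fell, by 0.19 ± 0.06, while Gpm6a (-0.44), Msln (0.12) and Krt19 (0.21) were not called. The part of these cells in the falls of the set was not tested.

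Immediate early genes, which respond to stimulation and to handling of tissue, also moved with dose at day 29. At 2000 mg/kg 10 of 19 fell, with Egr1 at -2.91 ± 0.33 and Nr4a1 at -2.59 ± 0.40, and at 200 mg/kg 3 of 19 fell. Over all clusters 9.55% fell at 2000 mg/kg and 1.42% at 200 mg/kg. The list mean was -0.67 to -0.22 in 2000 mg/kg animals, -0.51 to 0.64 in 200 mg/kg animals and 0.26 to 0.67 in vehicle animals, and its part in the results was not tested. Kupffer cell and macrophage genes did not move with the set at that day, with 0 of 12 called at 2000 mg/kg, a median of -0.07 and list means of -0.77 to 0.47 against -0.55 to 0.82. Endothelial genes had 0 of 6 called, while 21.6% of all clusters were called either way.

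At day 8 the macrophage list differed between treated and vehicle animals. All 12 genes fell at 2000 mg/kg, with a median of -0.98, and the list mean was -0.66 to 0.11 against 0.38 to 1.23 in vehicle animals. Erythrocyte genes fell in 2 of 4 (median -0.61), with list means of -0.15 to 0.18 against 0.38 to 1.04, also without overlap. Endothelial genes fell in 3 of 6, immediate early genes in 5 of 19, hepatocyte genes in 5 of 7 (median -0.16) and lymphocyte genes in 3 of 8 (median -0.13). Over all clusters 9.32% fell in this comparison. In vehicle animals 11 of the 12 macrophage genes also fell from day 8 to day 29 (median -1.02). The group mean of the list was 0.81 in vehicle animals of day 8 and -0.11 in treated animals of that day. On day 29 it was -0.18 in vehicle animals, -0.17 at the lower dose and -0.21 at 2000 mg/kg. By mean, vehicle animals of day 8 thus stood above all other groups, although the highest vehicle animal of day 29 lay at 0.82. Erythrocyte means in the same order were 0.62, 0.01, -0.16, -0.03 and -0.04. The part of these lists in the day 8 results and in the comparison of days was not tested.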

How the data were processed

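The deposited table holds log2 values of 27342 transcript clusters in 29 liver RNA samples on Affymetrix whole-transcript arrays, per the labels' protocols. In it each cluster has a median of 0, as checked on the file. PLIER and MAS5 appear in the submitters' processing notes, with no version and no stated role. How arrays were normalized to each other, any offset and the log base were not given in the sources used here, and base 2 was assumed. An offset would understate folds of dim genes. Slide and scan date were not used, so batches were not tested.

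Members were matched through the platform annotation (15097 clusters with 1 symbol, 323 with several, 11922 with none). All 32 symbols were also in the RefSeq table (GRCr8). The labels call samples of a group biological replicates. Groups were compared with limma 3.58.1 in R 4.3.3: 5 group means over 29 animals, empirical Bayes without a trend, two-sided tests, Benjamini-Hochberg adjustment over all clusters, threshold 0.05 and 95% intervals. The fit was also run on simulated data with independent noise in each cluster. That setting holds no differences shared by the genes of an animal, so it is no check on them.

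The members, gene lists and tests were chosen with earlier results of these data known. Members given in full were, against vehicle, the 4 largest called falls and 3 largest called rises, in the other comparisons the 3 largest called values, and always Lox, Loxl1, Loxl2, Col1a1, Col1a2, Col3a1, Lrat, Pdgfrb, Timp1, Tgfb1 and Ccn2. Of each other list up to 2 called genes per comparison were to be named. P4hb, Crtap and Serpinh1 stand outside that rule and were picked with their values known. Promoters shown are the 5 largest called falls with a window. Plots were drawn with matplotlib 3.10.9. Alternatives covered quantile normalization, array centring, clusters tested, groups fitted, robust fitting, array weights, a replicate block, a stricter threshold, averaging of clusters and leaving out animals. No 2 arrays correlated above 0.725, so none looked like 1 sample deposited again.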

Additional observations from a re-analysis of the deposited data

Results flagged for a closer look

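The effect of 2000 mg/kg differed between days by a test of the difference itself for Lrat (-0.87), Tagln (-0.62) and Sparc (-0.56), each lower at day 29 than at day 8. All 3 calls were lost under quantile normalization and at a threshold of 0.01, Lrat's also without any 1 of 9 animals and Tagln's without any 1 of 17. Lrat (0.46, not called) and Tagln (0.37) were also higher in vehicle animals of day 29 than in those of day 8.

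In 4 of 160 gene and group combinations, 1 animal stood apart from the rest of its group by Dixon's criterion, which chance meets in about 1 in 20. Col3a1 was lowest, at -0.58, in 2000 mg/kg day 29 replicate 5. Pcolce was lowest, at -0.24, in vehicle day 29 replicate 2. Postn was highest, at 0.14, in 2000 mg/kg day 8 replicate 4, and Ccn2 was highest, at 0.26, in vehicle day 8 replicate 5.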

How the results depend on the processing

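Over 63 calls and 629 refits of them (leaving out single animals aside), 592 kept direction and side of the threshold, 37 fell short of it and 0 reversed. The number of genes called depended most on the setting where it was small. For the change between days it was 0 under quantile normalization and at a threshold of 0.01, 5 with array weights and 6 without vehicle day 29 replicates 1 and 2 together, against 3 as reported; leaving out single animals gave 1 to 9. Between vehicle groups it was 0 under quantile normalization, at 0.01 and with only those groups fitted, 1 with clusters of stored signal 8 or more, 5 with array weights and 6 without both replicates, against 2; single animals gave 0 to 5. At 200 mg/kg it was 1 with only those groups fitted (Lox lost), 5 with array weights, 4 with the replicate block and 4 without both replicates, against 2; single animals gave 2 to 6. At a threshold of 0.01 it was 6 for 2000 mg/kg at day 8 (10 as reported) and 12 between doses (20 as reported). Restricted to the 12 genes with stored signal of 8 or more, 10 were called at 2000 mg/kg on day 29 and 10 between doses, all of them falls. Calls were also more frequent among all 7783 clusters with such signal than among all clusters. In the fit of all clusters, 1852 of the 7783 rose and 1312 fell at 2000 mg/kg on day 29. Between doses 973 rose and 580 fell. Leaving out single animals gave 9 to 13 at day 8, 24 to 27 at 2000 mg/kg on day 29 and 15 to 20 between doses. The causes were not tested.

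Replicate numbers did not pair the animals: of 22 same-number pairs 4 correlated over 0.1 (-0.278 to 0.295). With the replicate block the counts were 11, 24, 4, 18, 3 and 3 in the order day 8, day 29 at 2000 and 200 mg/kg, between doses, between days and between vehicles. Signal over background could not be judged on centred values, so dim genes cannot be set apart beyond the 12.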
